A study of Mus musculus with 13 samples.

Results

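Cells labelled as thymic epithelial cells (TEC) induced from fibroblasts were compared with TEC of the fetal thymus across all genes. The members are 4 of the 13 RNA libraries of the series: 2 of day 12 induced TEC (iTEC) sorted as Epcam-positive, and 2 of fetal TEC. They were chosen by their sample labels, and each positive library was also compared by itself with the fetal pair. The positive cells were primary mouse embryonic fibroblasts of E13.5 embryos and genotype iFoxn1/+, which carry a Cre-inducible copy of Foxn1. They received the plasmid pPGK-Cre by nucleofection and were sorted 12 days later on Epcam, a surface protein of epithelia. Fetal TEC are labelled as untreated cells of E15.5 with no genotype given, so it is unknown whether they carry the iFoxn1 allele. The same protocol text stands under all samples, and how the fetal cells were isolated is not known here. The labels do not say whether the replicates are separate cultures or animals. The p-values then measure only the spread between samples within a group, taken over all 13 libraries, which may be technical. A positive library compared by itself adds nothing to that spread.

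TEC form the stroma in which T cells mature. Foxn1 is the transcription factor of the forkhead family without which the third pouch rudiment does not become a working thymus. Under it stand genes for attracting progenitors (Ccl25, Cxcl12), for committing them to the T lineage (the Notch ligand Dll4) and for selecting them (the cortical proteasome subunit Psmb11, the protease Prss16 and MHC class II). Cortical TEC carry out positive selection, and medullary TEC, many of which express Aire, display tissue antigens for tolerance.

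The positive libraries 1 and 2 held 81965792 and 55221953 counts, and the fetal libraries 66658700 and 63672749. Levels are CPM, the counts of a gene scaled to library size with TMM factors. Differences are log2 values of positive over fetal with the standard error from edgeR's quasi-likelihood test, and a call is an adjusted p under 0.05 over 17004 tested genes. In a comparison of 1 library, that library was assumed to vary like the other groups. Lower bounds (3 counts over the group at 0) and counting intervals cover counting error only.

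The positive libraries were unlike each other. Library 2 had no count for 3477 of the tested genes, against 971 in library 1 and 1147 and 1438 in the fetal pair. The ribosomal RNA gene Rn45s took 2.19% of counts in library 1, but 0.0364% in library 2 and 0.0789 and 0.0706% in the fetal pair. Across genes, the rank correlation of level with transcript length was 0.271 in library 1, -0.013 in library 2 and -0.016 and -0.061 in fetal TEC, against 0.269 to 0.309 in the other 9 libraries. Library 1 thus lay with the other libraries in this value, and library 2 near fetal TEC. Y-linked RNA and the inactive X transcript Xist gave 239.6 and 46.3 CPM and 1.34 and 0 CPM in the positive pair, by library size alone. In the fetal pair they gave 40.8 and 32.8 CPM and 6.05 and 8.21 CPM. In the Epcam-negative libraries of day 12 they gave 0.0164 and 0 CPM and 1053 and 795 CPM. The part of these differences in the results was not tested, except where a value with length modelled is given.

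Many genes differed from fetal TEC, and the 2 positive libraries often disagreed. The pair gave 6052 called genes (35.6% of those tested), 3263 higher (19.2%) and 2789 lower (16.4%), and 8030 had an unadjusted p under 0.05. Library 1 alone gave 10583 calls (62.2%), with 5502 higher (32.4%) and 5081 lower (29.9%). Library 2 alone gave 8654 (50.9%), with 3601 higher (21.2%) and 5053 lower (29.7%). Both single comparisons use the same fetal libraries. They called 2186 genes higher in both (12.9%) and 2739 lower in both (16.1%), of which 2145 and 2497 were also called in the pair. Library 1 was higher and library 2 lower for 769 genes (4.52%), and the reverse held for 446 (2.62%). Both positive libraries lay above both fetal ones for 22.2% of tested genes, and below both for 27.7%. Counts within the gene lists below stand against these shares of all tested genes. Counts of 1 positive library stand against the shares of that library. A fit of these 4 libraries without the other groups called 219 genes, 46 higher and 173 lower. In that fit 130 of 165 named genes lost their call, and those that kept it include Aire, Fezf2, Cd40, Tbata, Psmb8, Psmb9, Ciita, Hoxb9, Hoxc6, Hoxc8 and Wnt5a. The pair called 10273 genes without positive library 2 and 3829 without fetal library 2.

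Transcript length split the opposite calls. Genes called higher in library 1 and lower in library 2 had a median transcript length of 4606 bases, those with the reverse calls 1671 bases, and all tested genes 2552 bases. For library 1 the median log2 difference from fetal TEC was -0.84 for transcripts under 1000 bases, -1.04 in the next bin and 1.88 for those of 5000 bases and over. For library 2 these medians were -0.26, -0.12 and -0.43. Over all tested genes the median difference was 0.17 for the pair, -0.02 for library 1 and -0.23 for library 2. Values for each library therefore stand beside those of the pair for many genes and lists.

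**Figure D1:**
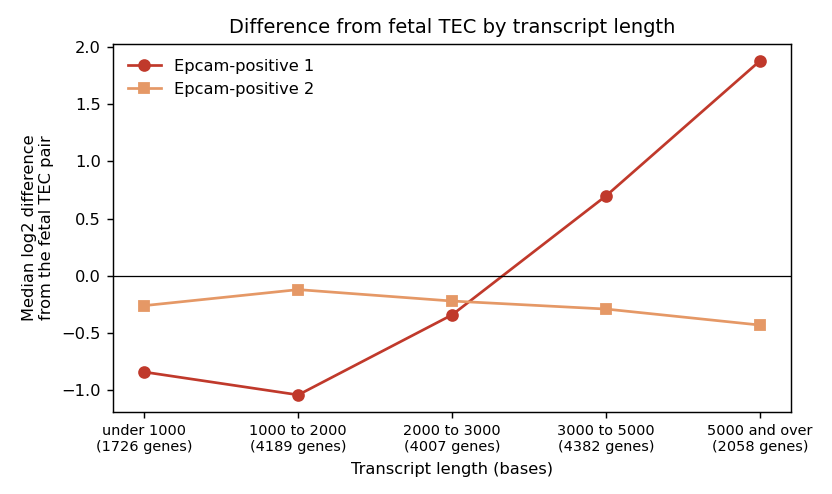
Median log2 difference from the fetal TEC pair by bins of transcript length (bases) for each Epcam-positive library. Library 1 is below 0 in the 3 shorter bins and at 1.88 in the longest, while library 2 lies between -0.43 and -0.12 in all bins.

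Foxn1 itself lay close to the fetal level. Its level was 326 and 292 CPM in the positive libraries and 362 and 362 CPM in the fetal libraries, so the positive libraries lay just under the fetal ones, within 1.5-fold of their mean (log2 -0.23 ± 0.27, adjusted p = 0.533; -0.15 for library 1 and -0.31 for library 2). The counts do not separate the induced copy from the endogenous gene. Most genes known to depend on Foxn1 were lower. The list of 16, Foxn1 included, had 10 that fell, 1 that rose and 5 that did not pass in the pair. Both single comparisons called 10 lower and 1 higher. In bulk libraries, fewer cells of a type and less RNA per cell cannot be told apart. Their median log2 difference was -2.82 in the pair, -3.38 for library 1 and -2.98 for library 2.

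The 250 bases before the start of 3 of these genes are shown because they carry a core motif bound by Foxn1, GACGC, and took different courses. Sequences are from RefSeq on GRCm38.p6 (mm10), and capitals mark GACGC or its reverse complement GCGTC.
Psmb11 promoter, chr14:54625060-54625309 (plus strand): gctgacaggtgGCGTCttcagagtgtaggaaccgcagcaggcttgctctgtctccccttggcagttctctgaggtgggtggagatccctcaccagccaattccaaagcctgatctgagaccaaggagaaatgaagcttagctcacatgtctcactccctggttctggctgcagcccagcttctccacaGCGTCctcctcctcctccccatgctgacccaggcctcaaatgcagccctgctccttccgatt
Ccl25 promoter, chr8:4324960-4325209 (plus strand): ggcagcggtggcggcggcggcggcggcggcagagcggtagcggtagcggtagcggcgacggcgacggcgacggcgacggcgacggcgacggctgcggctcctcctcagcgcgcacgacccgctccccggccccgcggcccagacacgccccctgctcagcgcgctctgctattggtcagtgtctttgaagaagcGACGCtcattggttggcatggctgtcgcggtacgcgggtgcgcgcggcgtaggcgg
Kitl promoter, chr10:100015571-100015820 (plus strand): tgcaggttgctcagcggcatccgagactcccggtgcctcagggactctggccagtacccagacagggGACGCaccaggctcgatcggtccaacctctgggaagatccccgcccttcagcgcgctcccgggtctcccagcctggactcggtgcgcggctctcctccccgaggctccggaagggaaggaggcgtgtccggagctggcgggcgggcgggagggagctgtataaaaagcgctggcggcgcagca
The motif, searched on both strands, was found in 5 of 13 promoters of the list (38.5%), from 12 genes, and in 7423 of 32851 promoters of the table (22.6%). Cxcl12 and Pax1 held it too. A match is a description of the letters and not a measured binding site.

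Psmb11, the beta5t subunit of the thymoproteasome that cuts peptides in cortical TEC, has 2 matches and fell. It measured 91.9 and 398 CPM in the positive libraries and 1786 and 2834 CPM in the fetal libraries. Both positive libraries lay below both fetal libraries (log2 -3.24 ± 0.61, adjusted p = 0.00419; -4.65 for library 1 and -2.54 for library 2). Ccl25, the chemokine that draws thymocyte progenitors, has 1 match upstream of the first of its 2 listed starts and went opposite ways. It measured 1251 and 14953 CPM in the positive libraries and 3027 and 4870.4 CPM in the fetal libraries, so library 1 stood below and library 2 above both fetal libraries. The pair did not pass (log2 1.04 ± 0.8, adjusted p = 0.332), while library 1 was called lower (log2 -1.66 ± 0.27, adjusted p = 0.000897) and library 2 higher (log2 1.92 ± 0.24, adjusted p = 0.000277). With transcript length modelled, library 1 lost that call (adjusted p = 0.166) and the pair gained one (adjusted p = 0.0454). Kitl encodes a growth factor for early progenitors. It has 1 match and was the 1 gene of the 16 that rose. Its level was 83.9 and 37.1 CPM in the positive libraries and 12.6 and 13.7 CPM in the fetal libraries, without overlap (log2 2.2 ± 0.37, adjusted p = 0.0025; 2.67 for library 1 and 1.49 for library 2).

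Other members of the list were far below fetal TEC in both libraries. Prss16, the thymus-specific serine protease of cortical TEC, measured 0.874 and 24.7 CPM in the positive libraries and 11555 and 14180 CPM in the fetal libraries (log2 -9.98 ± 1.5, adjusted p = 0.00146; -13.84 for library 1 and -9.03 for library 2). Both positive libraries were low, and library 2 was the higher of the pair. Cxcl12, a chemokine that holds progenitors in the cortex, measured 43.7 and 41.6 CPM in the positive libraries and 1209 and 1411 CPM in the fetal libraries (log2 -4.94 ± 0.39, adjusted p = 6.18e-05; -4.91 for library 1 and -4.98 for library 2). The positive libraries were nearly alike here and both below fetal TEC. Cd40, the receptor through which T cells act on TEC, measured 0.736 and 0.308 CPM in the positive libraries and 329.5 and 445 CPM in the fetal libraries (log2 -9.5 ± 0.97, adjusted p = 0.000218), and Tbata, a thymic stromal gene, measured 0.575 and 0.488 CPM in the positive libraries and 2477 and 5056 CPM in the fetal libraries (log2 -12.78 ± 1.38, adjusted p = 0.000687). Without fetal library 2 the difference of Tbata was -12.16. Ackr4, a scavenger receptor for chemokines, measured 5 and 1.95 CPM in the positive libraries and 96.6 and 98.3 CPM in the fetal libraries (log2 -4.8 ± 0.5, adjusted p = 0.000232; -4.28 for library 1 and -5.64 for library 2). Vcam1, an adhesion molecule, measured 71.9 and 23.1 CPM in the positive libraries and 661 and 819.6 CPM in the fetal libraries (log2 -3.96 ± 0.5, adjusted p = 0.000624). All 4 were low in both positive libraries without overlap.

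Among proteases, Ctsl, the lysosomal cathepsin that prepares class II ligands in cortical TEC, measured 931 and 2661 CPM in the positive libraries and 7519 and 11534 CPM in the fetal libraries and fell (log2 -2.41 ± 0.49, adjusted p = 0.00605; -3.35 for library 1 and -1.84 for library 2). The positive libraries did not overlap the fetal ones, and the call was lost with transcript length modelled (adjusted p = 0.0697). Dll4 measured 70.5 and 208 CPM in the positive libraries and 200.4 and 237 CPM in the fetal libraries. Library 1 was low and library 2 overlapped the fetal pair, and only library 1 was called (log2 -1.63 ± 0.22, adjusted p = 0.000481 against log2 -0.07 ± 0.21, adjusted p = 0.822 for library 2; pair log2 -0.65 ± 0.45, adjusted p = 0.28). With transcript length modelled, library 2 was called higher instead (log2 0.74, adjusted p = 0.0354). Cd83, which stabilises surface class II in cortical TEC, split as Ccl25 did: it measured 66.3 and 2150.1 CPM in the positive libraries and 699 and 696 CPM in the fetal libraries, with differences of -3.39 for library 1 and 1.62 for library 2. Il7, the cytokine of early thymocytes, measured 4.23 and 0 CPM in the positive libraries and 73.2 and 106 CPM in the fetal libraries (log2 -5.38 ± 1.53, adjusted p = 0.0235). Its call was lost without fetal library 2 (adjusted p = 0.0694), and in library 2, which had no count, it stood at least 1133-fold lower.

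**Figure D2:**
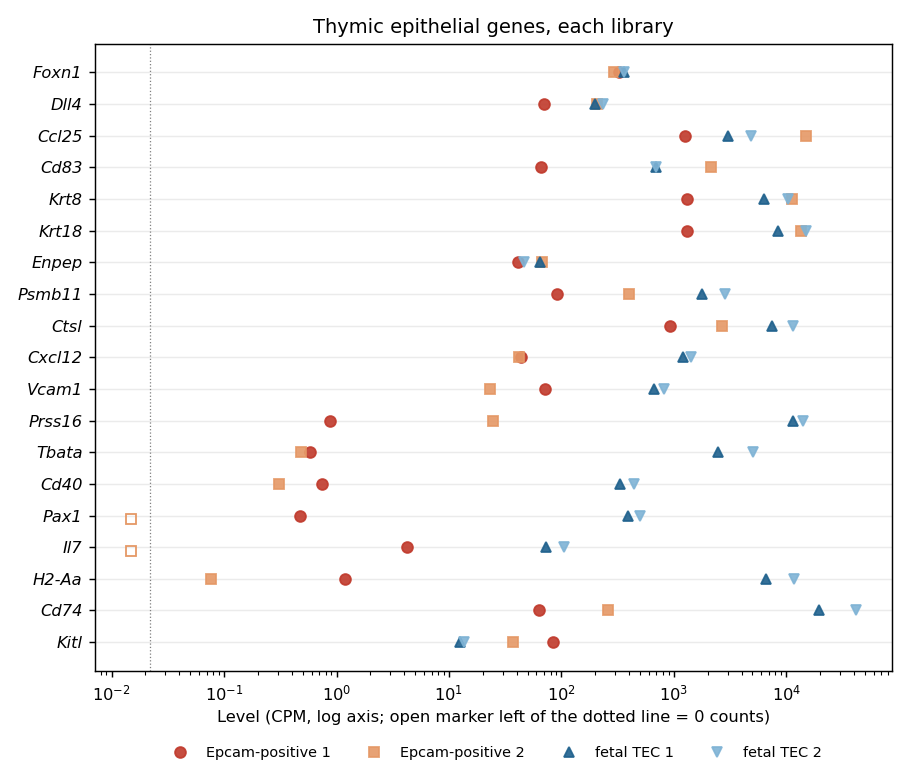
Levels (CPM, log axis) of TEC genes in each of the 2 Epcam-positive and 2 fetal TEC libraries, 1 point a library. Foxn1 points lie together, Ccl25 and Krt8 have the positive libraries apart, and Prss16, Tbata and H2-Aa have both positive libraries far below the fetal pair.

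Of 16 cortical TEC markers, which share 11 genes with the list above, 8 fell, 1 rose and 7 did not pass in the pair (median log2 -1.23). Library 1 had 13 lower and 1 higher, and library 2 had 8 lower and 3 higher. Krt8 and Krt18, the keratin pair of simple epithelia, marked this difference. Krt8 measured 1303 and 11170 CPM in the positive libraries and 6390.4 and 10371 CPM in the fetal libraries, and Krt18 measured 1296 and 13382 CPM in the positive libraries and 8496 and 15065 CPM in the fetal libraries. Library 1 was below both fetal libraries for both genes, and library 2 lay within the fetal range for Krt18 and just above it for Krt8. For Krt8 library 1 was called lower (log2 -2.69 ± 0.47, adjusted p = 0.00116) and library 2 was not called (log2 0.41 ± 0.4, adjusted p = 0.413), and for Krt18 the same held (log2 -3.18 ± 0.34, adjusted p = 7.51e-05 and log2 0.18 ± 0.28, adjusted p = 0.626). Enpep, a surface aminopeptidase of cortical TEC, lay within 1.5-fold of the fetal mean in both libraries, at 41.3 and 66.9 CPM in the positive libraries and 64.6 and 46.2 CPM in the fetal libraries (log2 -0.03 ± 0.36, adjusted p = 0.952).

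Medullary markers were low. Of 19 tested medullary and mimetic markers, 15 fell, 0 rose and 4 did not pass, and 16 were called lower in both single comparisons. Their median log2 difference was -7.1, and -7.47 for library 2 with genes at 0 put at their bound. Aire, which drives tissue antigens, and Fezf2, which drives another set of them, had no count in either positive library. In fetal TEC they measured 101 and 183 CPM and 151 and 177 CPM, so the positive pair stood at least 5738-fold lower for Aire (adjusted p = 0.0025) and at least 6817-fold lower for Fezf2 (adjusted p = 0.00122). Trp63, the p63 factor of epithelial progenitors, measured 0.989 and 0 CPM in the positive libraries and 159 and 206 CPM in the fetal libraries (log2 -8.44 ± 1.35, adjusted p = 0.00195). Tnfrsf11a, the RANK receptor through which medullary TEC grow, measured 5.22 and 9.83 CPM in the positive libraries and 92.9 and 119 CPM in the fetal libraries (log2 -3.82 ± 0.39, adjusted p = 0.000198; -4.34 for library 1 and -3.43 for library 2). Krt5 measured 21.6 and 21.9 CPM in the positive libraries and 315 and 411 CPM in the fetal libraries (log2 -4.06 ± 0.66, adjusted p = 0.00366) and Krt14 measured 14.4 and 8.39 CPM in the positive libraries and 224 and 349 CPM in the fetal libraries (log2 -4.65 ± 1.27, adjusted p = 0.023), each without overlap. Krt14 lost its call without fetal library 2 (adjusted p = 0.0774). Traf6, a signal adaptor, lay within 1.5-fold of fetal TEC in both libraries (0.28 for library 1 and -0.41 for library 2), but library 1 was lower with transcript length modelled (log2 -1.62).

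Genes of the third pouch and of thymus fate, the pouch being the embryonic source of thymus and parathyroid, moved both ways. Of all tested genes, 19.2% rose and 16.4% fell in the pair. Of 17 tested, 7 fell, 4 rose and 6 did not pass, and both single comparisons called 7 lower and 4 higher. Pax1, a paired-box factor of pouch endoderm, measured 0.472 and 0 CPM in the positive libraries and 391 and 500.3 CPM in the fetal libraries (log2 -10.73 ± 1.19, adjusted p = 0.000328), and library 2, with no count, stood at least 5688-fold lower. Pax9, its close relative, measured 0.828 and 6.62 CPM in the positive libraries and 72.9 and 114 CPM in the fetal libraries (log2 -4.66 ± 0.87, adjusted p = 0.00399; -6.81 for library 1 and -3.82 for library 2). Eya1, a transcriptional cofactor, measured 5.77 and 0.693 CPM in the positive libraries and 29.1 and 21.1 CPM in the fetal libraries (log2 -2.95 ± 0.77, adjusted p = 0.0171), but lost the call without fetal library 1 (adjusted p = 0.0564). These 3 were lower in both positive libraries without overlap. Hoxa3, Tbx3 and Bmp4 rose. Hoxa3, needed for pouch identity, measured 36.4 and 3.9 CPM in the positive libraries and 0.505 and 0.142 CPM in the fetal libraries (log2 5.93 ± 1, adjusted p = 0.00242; 6.76 for library 1 and 3.54 for library 2; 7.14 and 5.33 without fetal library 1 or 2). Tbx3, a T-box repressor, measured 33.8 and 25.9 CPM in the positive libraries and 1.18 and 1.26 CPM in the fetal libraries (log2 4.61 ± 0.33, adjusted p = 4.03e-05; 4.79 for library 1 and 4.41 for library 2). Bmp4, a growth factor of the pouch and of limb and body mesenchyme, measured 53.8 and 131 CPM in the positive libraries and 9.3 and 24.4 CPM in the fetal libraries (log2 2.45 ± 0.52, adjusted p = 0.00737; 3.32 without fetal library 2).

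Among thymocyte support factors, 6 of 16 tested fell and 5 rose, against 16.4% and 19.2% of all tested genes. Beside Kitl, Jag1 and Tgfb2 rose. Jag1, a Notch ligand of a different class from Dll4, measured 264 and 6.52 CPM in the positive libraries and 0.735 and 1.22 CPM in the fetal libraries (log2 7.12 ± 1.38, adjusted p = 0.00477; 8.09 for library 1 and 2.75 for library 2). Tgfb2, of the TGF-beta family, measured 247 and 61.3 CPM in the positive libraries and 10 and 11.4 CPM in the fetal libraries (log2 3.85 ± 0.59, adjusted p = 0.00153; 4.53 for library 1 and 2.52 for library 2). Both positive libraries were above fetal TEC, library 1 the more so. Il15, a cytokine of innate and memory-type lymphocytes, measured 0.874 and 2.13 CPM in the positive libraries and 24.1 and 19 CPM in the fetal libraries (log2 -3.85 ± 0.62, adjusted p = 0.00193). Ccl21a and Ccl21b, near-identical chemokine genes of medullary TEC whose reads may be shared, had no count in the positive pair and were at least 25020- and 16910-fold lower (adjusted p = 0.00439 and 0.00191). Without 1 fetal library the fitted difference of Ccl21a was -18.89 or -17.2, in place of -18.29. With no count in the positive pair these fitted sizes are arbitrary, and only the bound can be read. The Notch genes stand beside 19.2% of all tested genes called higher in the pair and 16.4% called lower. Over 18 Notch genes, 4 rose, 5 fell and 9 did not pass (8 higher and 6 lower in library 1, and 2 higher and 9 lower in library 2). Dll1 fell (0.909 and 2.28 against 27.9 and 46.4 CPM; log2 -4.55 ± 0.77, adjusted p = 0.0025), as did the target gene Hey1 (17 and 12.4 against 67.8 and 66.7 CPM; log2 -2.19 ± 0.36, adjusted p = 0.00198). Mfng, which modifies Notch receptors, fell as well (0.0575 and 0 against 57.5 and 46.6 CPM; log2 -10.45 ± 1.33, adjusted p = 0.000885).

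Antigen processing genes were lower on balance. Of 16 thymoproteasome and protease genes, 7 fell, 3 rose and 6 did not pass. The immunoproteasome subunits fell in both libraries: Psmb8 measured 12.2 and 14.4 CPM in the positive libraries and 322 and 276 CPM in the fetal libraries (log2 -4.49 ± 0.31, adjusted p = 3.82e-05; -4.62 for library 1 and -4.37 for library 2). Psmb9 measured 7.38 and 15.4 CPM in the positive libraries and 265 and 340.3 CPM in the fetal libraries (log2 -4.73 ± 0.53, adjusted p = 0.000324; -5.36 for library 1 and -4.3 for library 2). Psmb10 measured 34.6 and 110.2 CPM in the positive libraries and 719 and 1195 CPM in the fetal libraries (log2 -3.72 ± 0.57, adjusted p = 0.0016; -4.79 for library 1 and -3.12 for library 2). All positive values were under all fetal values. Psmb7, a subunit of the constitutive proteasome, lay within 1.5-fold of fetal TEC in both libraries, at 106 and 163 CPM in the positive libraries and 131 and 117 CPM in the fetal libraries (log2 0.12 ± 0.27, adjusted p = 0.752); library 1 was higher with transcript length modelled (log2 0.95). Ctsd, a lysosomal protease, rose with 1105 and 10479 CPM in the positive libraries and 573 and 431 CPM in the fetal libraries (log2 3.53 ± 0.82, adjusted p = 0.0106; 1.14 for library 1 and 4.38 for library 2), and lost the call without fetal library 1 or 2 (adjusted p = 0.0507 and 0.0715).

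Of 13 tested class II presentation genes, 6 fell, 1 rose and 6 did not pass (median log2 -1.29). The median was -2.06 for library 1 and -2.87 for library 2. No gene of the list had both positive libraries above both fetal ones. The classical chains, their invariant chain and their coactivator were among those far below fetal TEC. H2-Aa, a chain of the class II molecule, measured 1.18 and 0.077 CPM in the positive libraries and 6554 and 11784 CPM in the fetal libraries (log2 -13.76 ± 2.21, adjusted p = 0.00357). H2-Ab1, its partner chain, measured 3.2 and 14.2 CPM in the positive libraries and 17640 and 28332 CPM in the fetal libraries (log2 -11.37 ± 1.07, adjusted p = 0.000151; -12.81 for library 1 and -10.66 for library 2). Cd74, the invariant chain that guides class II, measured 63 and 259 CPM in the positive libraries and 19473 and 41827 CPM in the fetal libraries (log2 -7.57 ± 0.82, adjusted p = 0.000285; -6.91 without fetal library 2). Ciita, the coactivator that turns class II genes on, measured 0.311 and 0.128 CPM in the positive libraries and 208 and 286 CPM in the fetal libraries (log2 -10.06 ± 0.82, adjusted p = 0.000126; -9.62 for library 1 and -10.89 for library 2). The positive libraries were below the fetal ones for all 4, and library 2 exceeded library 1 for H2-Ab1 and Cd74. H2-Ob, of a class II chaperone, went opposite ways, with 0 and 91.7 CPM in the positive libraries and 2.31 and 4.69 CPM in the fetal libraries. Macrophages and dendritic cells also carry class II. Their markers summed to 264 and 319 CPM in the positive and 474 and 561 CPM in the fetal libraries, and their part was not tested. Most of the sum of library 2 was Fcgr3 and Cd14, which also had counts in the Epcam-negative libraries. Class II counts of single genes are uncertain, since reads shared by near-identical genes may have been split.

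For class I, 6 of 16 genes fell and 2 rose, against 16.4% and 19.2% of all tested genes, and 8 did not pass. With genes at 0 put at their bound, the median log2 difference was -1.87 for library 1 and -1.11 for library 2. Tapbpl, which edits class I peptides, fell (15.8 and 47.2 against 243 and 209.9 CPM; log2 -2.84 ± 0.47, adjusted p = 0.00228; -3.84 for library 1 and -2.26 for library 2). The heavy chains split the positive libraries. H2-K1 measured 326 and 0 CPM in the positive libraries and 0 and 0.264 CPM in the fetal libraries, and H2-D1 measured 410 and 0 CPM in the positive libraries and 0.429 and 0.0406 CPM in the fetal libraries. Of the libraries compared, only positive library 1 was high, and positive library 2 had no count of either gene. H2-K1 measured 206 and 254 CPM in the Epcam-negative libraries and 64.6 and 59.7 CPM in the untreated fibroblasts. For H2-D1 these levels were 228 and 291 CPM and 138 and 106 CPM. Positive library 1 was thus nearer to those libraries than to fetal TEC, and positive library 2 nearer to fetal TEC. Both were called higher in the pair (adjusted p = 0.0234 and 0.0245), but without fetal library 1 the adjusted p was 0.11 and 0.0827, and without fetal library 2 it was 0.0731 and 0.126. For positive library 2 alone H2-D1 was called lower (at least 3.4-fold, adjusted p = 0.0464). H2 genes share near-identical stretches, so these counts are uncertain. B2m, the light chain of class I, measured 729 and 1289.8 CPM in the positive libraries and 1026 and 2379 CPM in the fetal libraries and was not called in any of the 3 comparisons (log2 -0.75 ± 0.52, adjusted p = 0.275; -1.22 for library 1 and -0.4 for library 2).

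Epithelial identity genes separated the positive libraries from fetal TEC and from each other. Epcam, the protein used for the sort, measured 4.8 and 30.6 CPM in the positive libraries and 312 and 574 CPM in the fetal libraries, and 0.56 and 0.29 CPM in the Epcam-negative libraries of the same day. It was above the negative libraries in both positive ones. It was below both fetal libraries (log2 -4.65 ± 0.84, adjusted p = 0.00429, with -6.53 for library 1 and -3.85 for library 2). The negative libraries differed from both positive ones in Xist and Y-linked RNA, so they cannot be taken as fractions of the same cultures. Cdh1, the adhesion molecule E-cadherin, measured 31.5 and 24.5 CPM in the positive libraries and 299 and 315 CPM in the fetal libraries (log2 -3.45 ± 0.39, adjusted p = 0.000331; -3.29 for library 1 and -3.64 for library 2). Of 34 adhesion and junction genes, 12 fell, 4 rose and 18 did not pass, and 14 were called lower in both single comparisons. Of the defining TEC markers Foxn1, Psmb11, Prss16, Dll4, Ccl25, Krt8, Epcam and Cdh1, none was at 0 in either positive library. The same held in both Epcam-negative libraries, where Foxn1 measured 468 and 391 CPM and Prss16 0.718 and 0.69 CPM. Cldn7, a tight junction protein, measured 0.069 and 0 CPM in the positive libraries and 133 and 186 CPM in the fetal libraries (log2 -11.79 ± 1.13, adjusted p = 0.00025), and Cldn3, another, measured 0.127 and 1.54 CPM in the positive libraries and 83.7 and 139 CPM in the fetal libraries (log2 -7.1 ± 1.18, adjusted p = 0.00229; -9.76 for library 1 and -6.17 for library 2). Prss8, a membrane protease of epithelia, measured 0.713 and 1.28 CPM in the positive libraries and 29.6 and 58.3 CPM in the fetal libraries (log2 -5.46 ± 0.79, adjusted p = 0.00229). The opposite course was taken by Dsg3, a desmosomal cadherin of stratified epithelia, with 14.9 and 3.08 CPM in the positive pair and no count in the fetal pair (at least 430.5-fold higher, adjusted p = 0.00345; 571-fold in library 1 and 118-fold in library 2).

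Of 20 transcription and splicing regulators of epithelia, 7 fell, 2 rose and 11 did not pass. Elf3, an ETS factor, measured 0.357 and 0.899 CPM in the positive libraries and 99.4 and 186 CPM in the fetal libraries (log2 -7.85 ± 0.69, adjusted p = 0.000179; -8.63 for library 1 and -7.31 for library 2). Ehf, a relative, measured 0.851 and 0.128 CPM in the positive libraries and 23.5 and 30.8 CPM in the fetal libraries (log2 -5.75 ± 0.99, adjusted p = 0.00348). Grhl1, a grainyhead factor that acts on desmosome genes, was one of the rises at 59.2 and 92.4 CPM in the positive libraries and 11.2 and 21.4 CPM in the fetal libraries (log2 2.22 ± 0.39, adjusted p = 0.003; 1.86 for library 1 and 2.5 for library 2). The groups did not overlap for these 3 genes. Of 10 hemidesmosome and laminin-332 genes, which anchor basal cells, 5 did not pass. In the pair 3 rose and 2 fell, against 19.2% and 16.4% of all tested genes. Lama3 fell (0.633 and 0 against 50.4 and 33.9 CPM; log2 -6.98 ± 1.36, adjusted p = 0.00483) and Plec, encoding plectin, rose (1040 and 286 against 80.6 and 40.9 CPM; log2 3.45 ± 0.64, adjusted p = 0.00406; 4.1 for library 1 and 2.23 for library 2).

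Of 12 simple and basal keratins, 5 fell, 0 rose and 7 did not pass (0 higher and 10 lower in library 1, and 1 higher and 6 lower in library 2). Krt17, a keratin of basal and activated epithelia, measured 14.2 and 11.1 CPM in the positive libraries and 2836 and 4658 CPM in the fetal libraries (log2 -8.21 ± 1.35, adjusted p = 0.00289; -8.04 for library 1 and -8.4 for library 2). Krt20 measured 1.1 and 2.64 CPM in the positive libraries and 46.7 and 57.2 CPM in the fetal libraries (log2 -4.8 ± 0.6, adjusted p = 0.000546; -5.55 for library 1 and -4.3 for library 2). Both were low in both positive libraries. Krt7, of ducts and other simple epithelia, measured 13 and 347 CPM in the positive libraries and 953 and 966 CPM in the fetal libraries, with library 2 nearer fetal TEC than library 1 (-6.21 for library 1 and -1.47 for library 2; pair log2 -2.41 ± 1.14, adjusted p = 0.124). Hair keratins, which build the hair shaft, moved both ways, beside 19.2% of all tested genes called higher in the pair and 16.4% lower. Of 18 tested, 6 rose, 4 fell and 8 did not pass, and both single comparisons called 6 higher and 4 lower. Krt34 and Krt31, with no count in fetal TEC, stood at 36.7 and 131 CPM and 13.2 and 78.4 CPM (at least 2519- and 1275-fold higher, adjusted p = 0.000562 and 0.00125). In library 1 alone the bounds were 1401- and 504-fold. Krt83 measured 127 and 1227 CPM in the positive libraries and 3.34 and 1.74 CPM in the fetal libraries (log2 8.05 ± 1.08, adjusted p = 0.00115; 5.64 for library 1 and 8.91 for library 2). Krt33a measured 121 and 1552 CPM in the positive libraries and 0.199 and 1.38 CPM in the fetal libraries (log2 10.06 ± 1.53, adjusted p = 0.00206; 9.25 and 12.03 without fetal library 1 or 2). Library 2 held the higher level of all 4, and no positive library overlapped a fetal one. Krt33a has a near-identical neighbour, so its reads may be shared. The tested epidermal differentiation genes numbered 25, of which the pair called 2 higher and 3 lower and 20 did not pass. With genes at 0 put at their bound, their median log2 difference was -1.15 for library 1 and -1.9 for library 2. Krt80, a filament gene of differentiating epithelia, was one of the rises (61 and 99.5 against 5.04 and 3.53 CPM; log2 4.23 ± 0.37, adjusted p = 9.19e-05; 3.83 for library 1 and 4.53 for library 2).

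Mesenchymal transcription factors differed by library in size. Of 23 tested mesenchymal transcription factors, 12 rose, 3 fell and 8 did not pass (median log2 3.65), with 11 called higher in both single comparisons. The median was 4.08 for library 1 but 0.5 for library 2 (14 higher and 2 lower in library 1, and 11 higher and 4 lower in library 2). Prrx2, a homeobox factor of limb and skin mesenchyme, measured 70.3 and 62.2 CPM in the positive libraries and 2.39 and 0.73 CPM in the fetal libraries (log2 5.4 ± 0.64, adjusted p = 0.000448; 5.48 for library 1 and 5.3 for library 2; 6.51 and 4.8 without fetal library 1 or 2). Tbx15, a T-box factor of limb and skin, measured 105 and 63.1 CPM in the positive libraries and 3.15 and 4.08 CPM in the fetal libraries (log2 4.54 ± 0.36, adjusted p = 7.02e-05; 4.86 for library 1 and 4.13 for library 2). Alx1, a homeobox factor of facial mesenchyme, had 5.11 and 15.7 CPM and no fetal count (at least 320.1-fold higher, adjusted p = 0.000167; 195-fold in library 1 and 599-fold in library 2). Foxf2, a forkhead factor of mesenchyme, measured 23.2 and 8.47 CPM in the positive libraries and 0.107 and 0.223 CPM in the fetal libraries (log2 6.59 ± 0.74, adjusted p = 0.000331; 7.19 without fetal library 2). The positive libraries were above the fetal ones for all 4.

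Hox genes of high number were mostly higher than in fetal TEC. Hox genes record position along the body axis, and those of high paralogue number mark the trunk and limb, behind the pharynx where the thymus forms. Of 25 tested genes of paralogue groups 5 to 13, 23 rose, 1 fell and 1 did not pass, against 19.2% of all tested genes called higher. Both single comparisons called 21 of them higher. The median log2 difference with genes at 0 put at their bound was 7.5 for the pair, 7.54 for library 1 and 7.05 for library 2. In fetal TEC 11 of them had no count in either library. Hoxb9 measured 313 and 138 CPM in the positive libraries and 0.628 and 1.03 CPM in the fetal libraries (log2 8.09 ± 0.52, adjusted p = 3.25e-05; 8.57 for library 1 and 7.39 for library 2). Hoxa10 measured 31.5 and 30.2 CPM in the positive libraries and 0.138 and 0.203 CPM in the fetal libraries (log2 7.5 ± 0.42, adjusted p = 2.01e-05; 7.54 for library 1 and 7.48 for library 2). Hoxc6, Hoxc8 and Hoxa9 had no fetal count. They stood at 40.1 and 39.9 CPM (at least 1528-fold higher, adjusted p = 1.62e-05), 59.3 and 24 CPM (at least 1849-fold, adjusted p = 4.39e-05) and 21.3 and 18.6 CPM (at least 782-fold, adjusted p = 2.55e-05). The bound of Hoxc8 in library 2 alone was 916-fold. The levels of Hoxc6 and Hoxa9 were nearly alike in libraries 1 and 2. Hoxa7 measured 43.9 and 364 CPM in the positive libraries and 0.214 and 2.13 CPM in the fetal libraries (log2 7.45 ± 1.26, adjusted p = 0.00248; 6.59 and 9.89 without fetal library 1 or 2).

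The exception was Hoxb13, a marker of prostate and tail-end epithelium, with fetal levels of 6.63 and 6.73 CPM and no count in the positive pair (at least 280.2-fold lower, adjusted p = 0.0182). Its call was lost without fetal library 1 or 2 (adjusted p = 0.0568 and 0.0615) and in DESeq2's Wald test (adjusted p = 0.0573). Of 12 Hox genes of paralogue groups 1 to 4, 7 rose, 1 fell and 4 did not pass. Hoxc4 had 15.3 and 0.873 CPM against no fetal count (at least 414-fold higher, adjusted p = 0.00196). The bound was 585-fold in library 1 and 33.3-fold in library 2. Hoxa2, the gene of the second arch, was the fall, at 7.76 and 8.32 CPM in the positive libraries and 19.5 and 47.6 CPM in the fetal libraries (log2 -2.06 ± 0.44, adjusted p = 0.00745; -1.27 without fetal library 2). Its call was lost with transcript length modelled (adjusted p = 0.0568).

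**Figure D3:**
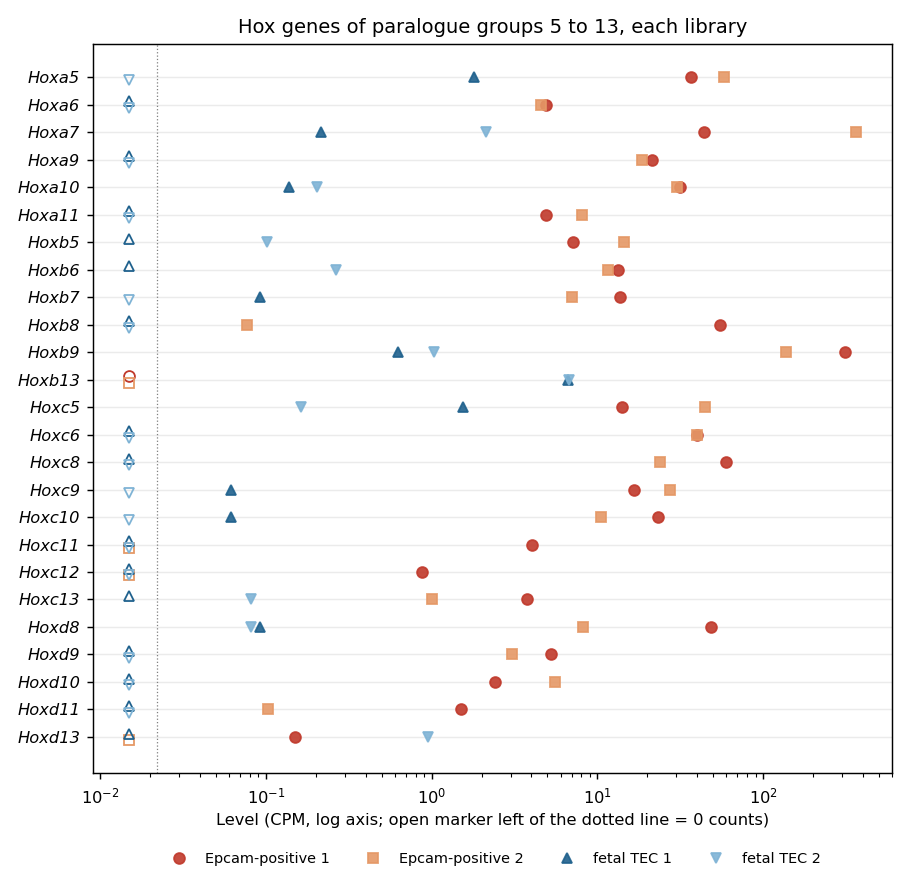
Levels (CPM, log axis; open markers left of the dotted line are 0 counts) of the Hox genes of paralogue groups 5 to 13 in the 2 Epcam-positive and 2 fetal TEC libraries. Most genes have both positive points to the right of both fetal points, and Hoxb13 has the reverse.

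Matrix genes differed widely between the positive libraries. The fibroblast and mesenchyme genes numbered 30, of which the pair called 20 higher and 2 lower and 8 did not pass. For library 1 the median log2 difference was 3.91, and for library 2 it was 0.63, with 15 called higher and 3 lower in both and 5 called in opposite directions. The single counts were 26 higher and 3 lower in library 1, and 15 higher and 9 lower in library 2. Col1a1, the main collagen chain of bone and skin, measured 16630 and 731 CPM in the positive libraries and 211 and 125 CPM in the fetal libraries (log2 5.69 ± 1.17, adjusted p = 0.00613; 6.63 for library 1 and 2.12 for library 2). Library 1 was the highest and library 2 lay between it and fetal TEC, and the call was lost without fetal library 2 (adjusted p = 0.0522). Postn, periostin of the matrix, measured 16767 and 4242 CPM in the positive libraries and 215 and 148 CPM in the fetal libraries (log2 5.86 ± 0.73, adjusted p = 0.000585; 6.53 for library 1 and 4.55 for library 2), and Bgn, biglycan, measured 2620.1 and 527 CPM in the positive libraries and 27 and 20.5 CPM in the fetal libraries (log2 6.05 ± 0.8, adjusted p = 0.000772; 6.79 for library 1 and 4.47 for library 2). S100a4, a calcium-binding protein of motile cells, measured 112 and 252 CPM in the positive libraries and 11.6 and 12 CPM in the fetal libraries (log2 3.95 ± 0.4, adjusted p = 0.000218; 3.24 for library 1 and 4.42 for library 2). Sparc, a matrix protein, measured 2239 and 18201 CPM in the positive libraries and 1179.6 and 942 CPM in the fetal libraries (log2 3.27 ± 0.82, adjusted p = 0.0147; adjusted p = 0.065 and 0.0855 without fetal library 1 or 2).

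Not all common fibroblast markers were raised in both libraries, though 20 of the 30 genes above were called higher in the pair. Vim, the intermediate filament of mesenchyme, measured 1093 and 121 CPM in the positive libraries and 254 and 213 CPM in the fetal libraries. Library 1 was called higher (log2 2.23 ± 0.18, adjusted p = 1.66e-05) and library 2 lower (log2 -0.95 ± 0.2, adjusted p = 0.00421), and the pair did not pass (log2 1.38 ± 0.72, adjusted p = 0.16). With transcript length modelled, the library 2 call was lost (adjusted p = 0.87) and the pair was called higher (adjusted p = 0.0327). Dcn and Lum, matrix proteoglycans of fibroblasts, were chosen after their values were seen. In both positive libraries they were below fetal TEC. Dcn stood at 103 and 276 CPM against 672 and 659 CPM, and Lum at 22.8 and 2.08 CPM against 66.3 and 60.3 CPM. Thy1, a surface protein of fibroblasts and thymocytes, measured 156 and 5.52 CPM in the positive libraries and 5.12 and 9.63 CPM in the fetal libraries (log2 3.45 ± 1.11, adjusted p = 0.0367), and its call in the pair was lost without fetal library 1 or 2 (adjusted p = 0.162 and 0.105). Library 2 lay within the fetal range for Thy1.

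Of 14 contractile genes of myofibroblasts, 10 rose, 1 fell and 3 did not pass. Acta2, smooth muscle actin, measured 1305 and 5335 CPM in the positive libraries and 321 and 396 CPM in the fetal libraries (log2 3.21 ± 0.57, adjusted p = 0.00308; 1.86 for library 1 and 3.9 for library 2). Myl9, a myosin light chain, measured 299 and 744 CPM in the positive libraries and 27.2 and 23 CPM in the fetal libraries (log2 4.38 ± 0.44, adjusted p = 0.000201; 3.58 for library 1 and 4.89 for library 2). Tpm1, a tropomyosin, measured 800 and 658 CPM in the positive libraries and 97.1 and 152 CPM in the fetal libraries (log2 2.55 ± 0.31, adjusted p = 0.000517; 2.68 for library 1 and 2.4 for library 2). No positive library overlapped a fetal one for these 3. Of 12 osteoblast genes, 5 rose and 1 fell, against 19.2% and 16.4% of all tested genes, and 6 did not pass. The single libraries parted, with median log2 differences of 2.34 for library 1 and -1.14 for library 2 (genes at 0 put at their bound). Spp1, osteopontin, measured 859 and 1203 CPM in the positive libraries and 64.2 and 96 CPM in the fetal libraries (log2 3.69 ± 0.39, adjusted p = 0.000247; 3.42 for library 1 and 3.91 for library 2). Runx2 and Sp7, the factors that commit cells to bone, measured 38.4 and 3.98 CPM against 0.659 and 0.203 CPM (log2 5.6 ± 1, adjusted p = 0.0032; 6.43 for library 1 and 3.16 for library 2) and 74.9 and 20.1 CPM against 0.995 and 0.162 CPM (log2 6.33 ± 0.89, adjusted p = 0.000991; 6.96 for library 1 and 5.06 for library 2). Without fetal library 1 their differences were 6.71 and 8.19, and without library 2 that of Sp7 was 5.59.

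Among signalling genes, BMP and Wnt genes were higher on balance. Of 25 BMP and Wnt genes, the pair called 14 higher and 4 lower, and 7 did not pass. Both single comparisons called 11 higher. Wnt5a, a ligand of outgrowing limb and face, measured 272 and 168 CPM in the positive libraries and 1.62 and 0.243 CPM in the fetal libraries (log2 7.87 ± 0.82, adjusted p = 0.000235; 8.14 for library 1 and 7.45 for library 2; 9.82 and 7.09 without fetal library 1 or 2). Nog, an inhibitor of BMP ligands, measured 8.77 and 10.1 CPM in the positive libraries and 0.0306 and 0.0608 CPM in the fetal libraries (log2 7.66 ± 0.63, adjusted p = 7.2e-05; 7.57 for library 1 and 7.78 for library 2). Bmpr1a, a BMP receptor, measured 278 and 194 CPM in the positive libraries and 35.4 and 31.3 CPM in the fetal libraries (log2 2.82 ± 0.34, adjusted p = 0.000466; 3.06 for library 1 and 2.54 for library 2). All positive values were above all fetal values. Msx2, a homeobox target of BMP signals, measured 17.9 and 67.4 CPM, with 3 counts in 1 fetal library and 0 in the other. Its ratio over both libraries was 1270 (95% counting interval 434.5 to 6158, adjusted p = 0.000163). Of 17 tested FGF receptors and ligands, 5 rose, 2 fell and 10 did not pass in the pair. Of all tested genes the pair called 19.2% higher and 16.4% lower. With genes at 0 put at their bound, the list's median log2 difference was 1.16 for library 1 and 0.21 for library 2. The medians of all tested genes were -0.02 and -0.23. Fgfr1, the FGF receptor of mesenchyme, measured 845 and 181 CPM in the positive libraries and 10.2 and 6.57 CPM in the fetal libraries (log2 5.93 ± 0.69, adjusted p = 0.00041; 6.65 for library 1 and 4.43 for library 2). Fgf7, a mesenchymal growth factor for epithelia, measured 8.54 and 4.52 CPM in the positive libraries and 2.24 and 0.73 CPM in the fetal libraries (log2 2.13 ± 0.54, adjusted p = 0.0154; 3.17 without fetal library 1), and its call was lost without fetal library 2 (adjusted p = 0.0636). Fgf21, a stress hormone gene, fell at 1.62 and 15.2 CPM in the positive libraries and 242 and 399 CPM in the fetal libraries (log2 -5.26 ± 0.95, adjusted p = 0.0035; -7.62 for library 1 and -4.4 for library 2), and so did Dusp6, a brake of FGF signalling, at 22.9 and 19.7 CPM in the positive libraries and 83.1 and 54.8 CPM in the fetal libraries (log2 -1.7 ± 0.32, adjusted p = 0.00384; -1.59 for library 1 and -1.81 for library 2).

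Proliferation genes were low in the positive cells. Of 40 cell cycle genes, 31 fell, 0 rose and 9 did not pass, against 16.4% of all tested genes called lower. Both single comparisons called 33 of them lower, and the median log2 difference was -2.53 for library 1 and -3.67 for library 2. Cdk1, the mitotic kinase, measured 18.9 and 21.7 CPM in the positive libraries and 112 and 161 CPM in the fetal libraries (log2 -2.75 ± 0.29, adjusted p = 0.000235; -2.85 for library 1 and -2.65 for library 2). Cdc20, an activator of the anaphase complex, measured 10.2 and 13.9 CPM in the positive libraries and 207 and 197 CPM in the fetal libraries (log2 -4.06 ± 0.38, adjusted p = 0.000142; -4.3 for library 1 and -3.86 for library 2). Aurkb, a kinase of chromosome segregation, measured 6.8 and 8.63 CPM in the positive libraries and 130.3 and 80.1 CPM in the fetal libraries (log2 -3.77 ± 0.37, adjusted p = 0.000163; -3.95 for library 1 and -3.61 for library 2). Libraries 1 and 2 were alike and far below fetal TEC for these 3. Thymocyte markers, of cells that divide in the fetal thymus, were also lower in the positive pair (sums given with the other cell types), and their part was not tested. Mki67, the Ki-67 gene with a long transcript, measured 55.3 and 4.62 CPM in the positive libraries and 54.6 and 68.2 CPM in the fetal libraries. Library 1 was within the fetal range and library 2 below it (-0.15 for library 1 and -3.73 for library 2; pair log2 -1.03 ± 0.82, adjusted p = 0.343).

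Inhibitors of the cycle did not move as one. Of 20 CDK inhibitors and p53 targets, 6 rose and 5 fell, against 19.2% and 16.4% of all tested genes, and 9 did not pass. Cdkn1a, the p21 inhibitor, measured 791 and 2295 CPM in the positive libraries and 84.5 and 116 CPM in the fetal libraries (log2 3.94 ± 0.49, adjusted p = 0.000549; 2.98 for library 1 and 4.52 for library 2). Cdkn1c, the p57 inhibitor, went the other way at 13.4 and 43.4 CPM in the positive libraries and 352 and 388 CPM in the fetal libraries (log2 -3.7 ± 0.5, adjusted p = 0.000827; -4.78 for library 1 and -3.09 for library 2). Neither overlapped. Ccng1, a p53 target, measured 448 and 194 CPM in the positive libraries and 35.5 and 67 CPM in the fetal libraries (log2 2.65 ± 0.47, adjusted p = 0.00329; 3.13 for library 1 and 1.92 for library 2). Cdkn2a, the p16 and Arf locus that rises in cultured fibroblasts, measured 32.9 and 0.128 CPM against no fetal count (at least 870.4-fold higher, adjusted p = 0.00955). It was high in library 1 only (bounds of 1258-fold in library 1 and 4.9-fold in library 2), and the call was lost without fetal library 2 (adjusted p = 0.0505).

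Of 20 autophagy and lysosome genes, processes that feed class II loading in TEC, 7 rose, 1 fell and 12 did not pass. The single libraries differed, with median log2 differences of 0.36 for library 1 and 1.18 for library 2. The medians of all tested genes were -0.02 and -0.23. Gabarapl1, of the autophagosome, measured 143 and 210 CPM in the positive libraries and 46.4 and 49.4 CPM in the fetal libraries (log2 1.88 ± 0.27, adjusted p = 0.00101; 1.58 for library 1 and 2.13 for library 2), and Lamp1, of the lysosomal membrane, measured 715 and 1699 CPM in the positive libraries and 247 and 299 CPM in the fetal libraries (log2 2.15 ± 0.4, adjusted p = 0.00369; 1.39 for library 1 and 2.64 for library 2). Both were above fetal TEC in both libraries. The cholesterol synthesis genes numbered 22, of which the pair called 2 higher and 3 lower and 17 did not pass, so the share called lay under that of all tested genes.

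Immune signalling genes were lower on balance. Of 29 tested interferon-induced genes, 10 fell, 2 rose and 17 did not pass. Their median log2 difference was -1.32 in the pair, -1.05 for library 1 and -2.57 for library 2. Irf7, the factor that amplifies interferon, measured 30.2 and 23.6 CPM in the positive libraries and 132 and 158 CPM in the fetal libraries (log2 -2.43 ± 0.34, adjusted p = 0.000885; -2.27 for library 1 and -2.62 for library 2). Rsad2, an antiviral enzyme, measured 6.38 and 4.18 CPM in the positive libraries and 40.3 and 38.4 CPM in the fetal libraries (log2 -2.89 ± 0.46, adjusted p = 0.00184), and Cmpk2, its neighbour, measured 2.88 and 5.6 CPM in the positive libraries and 38.4 and 43.6 CPM in the fetal libraries (log2 -3.28 ± 0.44, adjusted p = 0.000834). All 3 were lower in both libraries. Of 26 inflammatory chemokines and cytokines, 11 fell, 3 rose and 12 did not pass. Cxcl10, a chemokine induced by interferon, measured 5.99 and 0.642 CPM in the positive libraries and 1019 and 1992 CPM in the fetal libraries (log2 -8.81 ± 1.11, adjusted p = 0.000585; -7.97 for library 1 and -11.19 for library 2). Ccl20, a chemokine of mature epithelia, measured 0.046 and 0 CPM in the positive libraries and 16.8 and 14 CPM in the fetal libraries (log2 -9.01 ± 1.47, adjusted p = 0.00212), and Cxcl1, a neutrophil chemokine, measured 3.14 and 1.41 CPM in the positive libraries and 25.9 and 17.5 CPM in the fetal libraries (log2 -3.24 ± 0.48, adjusted p = 0.00128; -2.79 for library 1 and -3.94 for library 2).

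**Figure D4:**
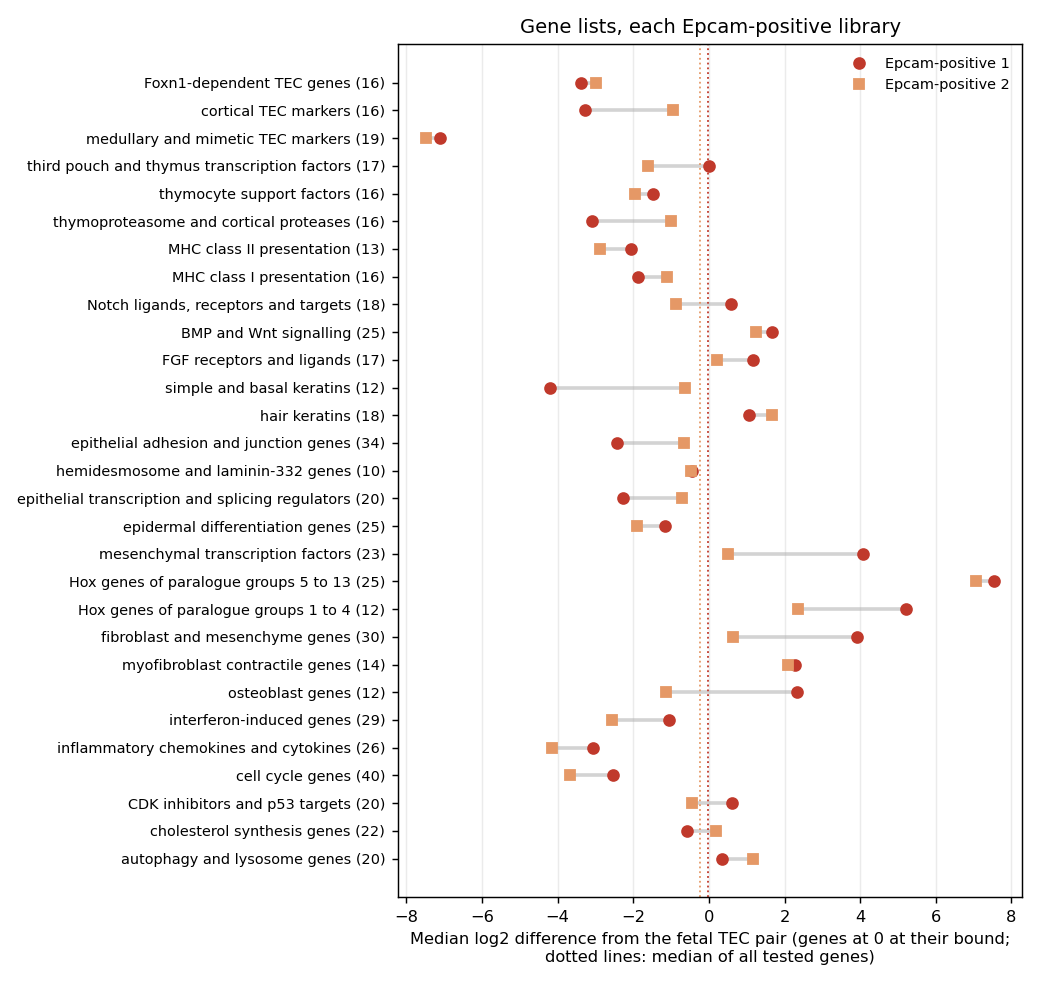
Median log2 difference from fetal TEC for each gene list other than markers of other cell types (number of tested genes in brackets, genes at 0 put at their bound), by Epcam-positive library; dotted lines are the medians of all tested genes. Of these lists, Hox genes of groups 5 to 13 lie furthest to the higher side and medullary markers furthest to the lower side.

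Markers of other cells were carried by the fetal libraries, and their part in the differences above was not tested. Of 21 tested thymocyte and lymphocyte markers, 17 were lower in the positive pair and 0 higher, and 11 had no count in either positive library. Their summed level was 100.1 and 30.2 CPM in the positive libraries and 1981 and 879 CPM in the fetal ones. Of the defining markers, Cd3e, Rag1 and Ptcra were at 0 in both positive libraries, and Ptprc, the common leukocyte antigen, measured 5.78 and 0 CPM in the positive libraries and 82.3 and 10.6 CPM in the fetal libraries. Cd3g, of the T cell receptor complex, was at 0 against 196 and 146 CPM (at least 7325-fold lower, adjusted p = 0.00158), and Lck, the kinase beside it, measured 0.253 and 0 CPM in the positive libraries and 656 and 283 CPM in the fetal libraries (log2 -11.63 ± 1.45, adjusted p = 0.000567; -10.9 without fetal library 1).

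Of 9 tested erythroid markers, 6 were lower and 0 higher, with sums of 4.57 and 7.83 CPM against 1368 and 802 CPM. Hba-a1 and Hbb-bs were at 0 in the positive pair, and Hbb-bs measured 322 and 0.325 CPM in fetal TEC, where 1 library held nearly all of it. Of 14 endothelial markers, 9 were lower and 0 higher, with sums of 27.2 and 29.3 CPM against 197 and 132 CPM. Pecam1 measured 0.115 and 0 CPM in the positive libraries and 18.2 and 6.71 CPM in the fetal libraries (log2 -7.54 ± 1.77, adjusted p = 0.011; -6.63 without fetal library 1). Of 6 parathyroid markers, 5 were lower and 0 higher, and Pth, the parathyroid hormone gene, stood at 0 in the positive pair against fetal values of 77.2 and 104 CPM (at least 3725-fold lower, adjusted p = 0.0023).

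Macrophage markers were also lower in sum, but few passed the test. Of 19 tested, 2 were higher, 1 lower and 16 did not pass in the pair (4 higher and 1 lower in library 1, and 2 higher and 10 lower in library 2). The sums were 264 and 319 CPM in the positive libraries, 474 and 561 CPM in the fetal ones and 44.6 and 62.5 CPM in the Epcam-negative ones. Lyz2, lysozyme, measured 76.1 and 4.72 CPM in the positive libraries and 309 and 424 CPM in the fetal libraries (log2 -3.18 ± 0.92, adjusted p = 0.0252; adjusted p = 0.0525 and 0.0826 without fetal library 1 or 2). The defining markers Adgre1 and C1qa measured 9.22 and 25.4 CPM in library 1 and had no count in library 2 or in the Epcam-negative libraries. Fcgr3 and Cd14, which made up most of the sum of library 2, stood at 239.9 and 64.7 CPM there. Both also had counts in the Epcam-negative libraries (Fcgr3 30.7 and 43.5 CPM, Cd14 9.93 and 14.2 CPM). The sum of library 2 is thus not a measure of macrophages. Fcgr3, an antibody receptor, measured 22.1 and 239.9 CPM in the positive libraries and 1.81 and 5.35 CPM in the fetal libraries (log2 5.19 ± 1, adjusted p = 0.00459; 6.19 without fetal library 2). Of 10 pericyte and neural crest markers, 1 was higher, 2 lower and 7 did not pass (4 higher and 2 lower in library 1, and 1 higher and 7 lower in library 2).

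**Figure D5:**
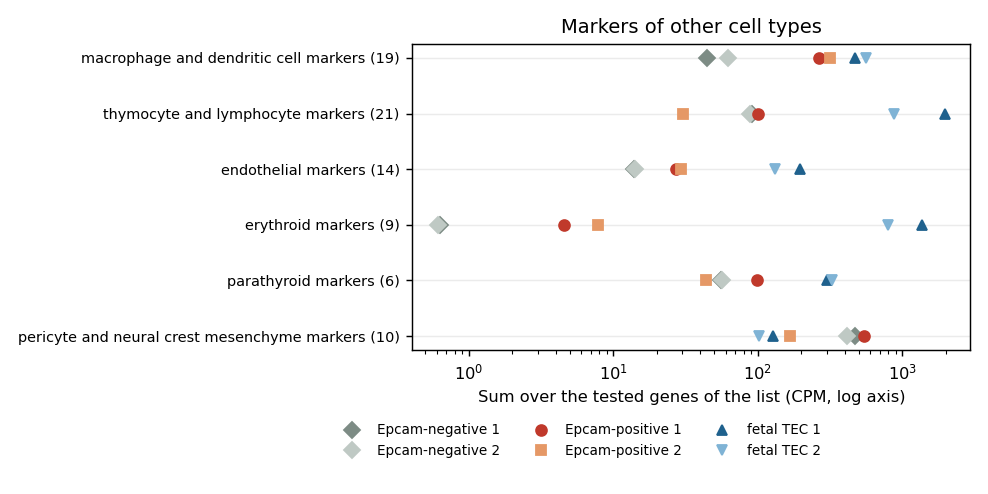
Summed levels (CPM, log axis) of markers of other cell types in each Epcam-negative, Epcam-positive and fetal TEC library. Macrophage, thymocyte, endothelial, erythroid and parathyroid sums are higher in both fetal libraries. Pericyte sums are higher in the positive ones (543 and 167 CPM), where most of each sum is Pdgfrb (393 and 157 CPM). With genes at 0 put at their bound, the median log2 difference of the pericyte list was -1.26 in the pair, -0.36 for library 1 and -3.83 for library 2.

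Most of the largest differences of single genes, the Ccl21 genes aside, lay outside the TEC lists. Among genes with no fetal count, Cemip, which breaks down hyaluronan, stood at 708 and 19.9 CPM (at least 18910-fold higher, adjusted p = 0.00105), with bounds of 27040-fold in library 1 and 759-fold in library 2. Col11a1, a cartilage collagen, stood at 198 and 28.8 CPM (at least 5555-fold, adjusted p = 0.00019), and Nexn, an actin-binding protein, at 145 and 23.2 CPM (at least 4100-fold, adjusted p = 0.000524). All 3 were higher in library 1 than in library 2, and the bounds for library 2 alone were 1098-fold for Col11a1 and 886-fold for Nexn. Mt3, a metallothionein, stood at 45 and 70.4 CPM (at least 2020-fold, adjusted p = 0.000247). Slc13a5, a citrate transporter, and Ston1, an endocytic adaptor, were also among the 8 largest rises, as were Krt34 and Krt31. Among genes with no count in the positive pair, Bpifa1, a secreted airway protein, had 1044 and 1321 CPM in fetal TEC (at least 48820-fold lower, adjusted p = 0.000921). Csn2, the milk protein beta-casein, had 225 and 419.6 CPM (at least 12950-fold, adjusted p = 0.00206), and Lpo, lactoperoxidase, had 177 and 319 CPM (at least 9991-fold, adjusted p = 0.00206). H2-M10.1, a class I gene of restricted expression, had 209 and 254 CPM (at least 9585-fold, adjusted p = 0.00113). Globin and Ccl21 genes made up the rest of the 8 largest falls.

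The largest opposite calls were ranked by the smaller of their fitted differences in the single libraries. For a gene with no count in a positive library, that fitted size is arbitrary, and only a bound can be read. Adamts12, a secreted matrix protease, measured 30.7 and 0 CPM in the positive libraries and 0.138 and 0.122 CPM in the fetal libraries. Library 1 was called higher (log2 7.85 ± 0.39, adjusted p = 1.4e-06) and library 2, with no count, lower (at least 1.7-fold, adjusted p = 0.00935). The pair's call (adjusted p = 0.0271) was lost without fetal library 1 or 2 (adjusted p = 0.119 and 0.127). Akap6, Apbb1ip, Rpia and H2-D1 had the same pattern of no count in library 2. Their bounds there were small, at 1.59-, 1.81-, 1.47- and 3.4-fold lower than fetal TEC. In reverse, Sost, an inhibitor of Wnt signals made by bone cells, measured 0 and 7.03 CPM in the positive libraries and 0.0766 and 0.629 CPM in the fetal libraries, with no count in library 1. Ccdc184, Cd320, Gcat, H2-Ob and Rnf182 were likewise lower in library 1 and higher in library 2. In all, 97 genes of at least 10 CPM in library 1 had no count in library 2, and 16 had the reverse.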

How the data were processed

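RNA sequencing counts per gene were used as deposited by the authors, as whole read counts with no normalization. The submitters' processing notes name mm10, FastQC, Trimmomatic, HISAT2, SAMtools, StringTie and DESeq2, with no version, role or order. Strand and the treatment of reads that match several genes are not given in the sources used here, so near-identical genes are uncertain. The columns headed No_Cre were taken as the untreated fibroblasts.

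All 13 libraries entered edgeR 4.0.16 (R 4.3.3; TMM factors, filterByExpr, robust quasi-likelihood fit, Benjamini-Hochberg adjustment) as 6 groups. Each positive library formed a group of its own in a further fit of all libraries. Of 24394 genes, 17004 were tested. Fits were tested on simulated data. These had less spread between libraries than was estimated here, and no differences by transcript length. They therefore do not test how such differences act on the calls. Transcript lengths, from GENCODE M21, matched 95.7% of genes, and promoters are from RefSeq. Replicate numbers were not treated as pairs: deviations of same-numbered positive and fetal libraries correlated at 0.102.

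Members and gene lists were chosen with earlier results of these data known. Named genes are a fixed set of markers and, by rule, those with the 8 largest differences each way, overall and in both single libraries, the 6 largest opposite calls for each library, up to 4 of each list by smallest p, up to 3 of the highest markers of other cells, and TEC genes within 1.5-fold of fetal TEC. Cd83, Vcam1, H2-K1, B2m, Ctsd, Sparc, Acta2, Hoxb13, Hoxa7, Krt7, Cdkn2a, Bmp4, Dsg3, Mki67, Dcn, Lum, Adgre1 and C1qa were chosen after their values were seen. Some genes that the rule names are not reported here. Alternatives were other scalings, filters, libraries and tests (DESeq2 1.42.0), a replicate block and a length offset.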

Additional observations from a re-analysis of the deposited data

How the results depend on the processing

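With 2 libraries a group, counts of calls depended on the libraries in the fit. Fitted without the other groups, the pair called 219 genes (3312 at an unadjusted p under 0.05), library 1 4684 and library 2 3545, and both single comparisons called 531 higher and 1358 lower. With a log2 fold minimum of 1, the pair called 3862, library 2 5584 and both single comparisons 1251 higher. Among transcripts under 2000 bases, where fewer genes were tested, the counts were 2189 for the pair, 3330 for library 1, 2853 for library 2, and 681 higher and 1073 lower in both. Leaving out 1 library gave 3829 to 10273 calls for the pair, 9652 to 12319 for library 1, 7703 to 10440 for library 2, and 1952 to 3029 higher and 2337 to 3489 lower in both. With the length offset 63.8% of the pair's calls were higher, against 53.9%, and 65% of those of library 2, against 41.6%. The other alternatives, apart from the replicate block, kept each of these counts within 1.5 times. The causes were not tested.

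With the replicate block the pair called 3576 genes, library 1 8824 and library 2 6752, and 19 of 169 named genes lost their call in the pair. The labels tie the numbers to no shared culture or animal.

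Of the 169 named genes called in the pair, 35 kept the call in every alternative that gave them a value. Genes with longer transcripts have no value among transcripts under 2000 bases. The fit of only the groups compared lost 130 of 165, the fold minimum 12, DESeq2's Wald test 5, the length offset 7 of 167, and leaving out fetal library 1 or 2 lost 19 or 25.

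Without 1 library, log2 differences of the pair ranged through 0, the lowest without positive library 1, for Adamts12 (-5.98 to 7.87), Akap6 (-5.96 to 8.87), Apbb1ip (-6.04 to 6.44), Cspg4 (-1.63 to 3.03), H2-D1 (-6.92 to 12.24), H2-K1 (-5.83 to 16.33), Rpia (-5.83 to 6.29), Stab1 (-4.91 to 8.09), Thy1 (-0.4 to 4.42) and Vim (-0.94 to 2.24). The lowest came without positive library 2 for Ccdc184 (-2.42 to 2.73), Ccl25 (-1.64 to 1.93), Cd320 (-1.81 to 1.91), Cd83 (-3.38 to 1.64), Gcat (-2.78 to 1.85), H2-Ob (-10.79 to 4.73), Rnf182 (-2.14 to 2) and Sost (-7.48 to 5.49). Where the positive library that is left had no count, the lowest value is arbitrary in size and only a bound can be read. This holds for Adamts12, Akap6, Apbb1ip, H2-D1, H2-K1, Rpia, H2-Ob and Sost. The highest value of H2-K1, without fetal library 2, is arbitrary too, as fetal library 1 had no count of it. With the length offset library 1 turned to 0.95 for Psmb7 and -1.62 for Traf6, and library 2 to 0.74 for Dll4. Among short transcripts library 1 gave 0.67 for Psmb7. A single comparison has no value without its own positive library.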
